A study of Homo sapiens with 4 samples.

Results

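CD44 was read by 12 of the 43376 array features that had values, and each feature was kept apart and grouped by its target transcript. The platform annotation gave 10 of them the accession NM_000610, 1 the accession U94903 and 1 the accession U94902. Whether the 10 features of NM_000610 carry one oligonucleotide or several could not be read from the annotation. The gene was chosen by its high ratios of azacytidine over DMSO and by the disagreement among its features, so those ratios are described below without a test.

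LNCaP is an established androgen-responsive line from a lymph node metastasis of a prostate carcinoma. Cells were kept without serum for 24 h and then received either 1 µM 5-azacytidine, dissolved in dimethyl sulphoxide (DMSO), or DMSO alone, for 24 h or 48 h. Both arms of both times had thus been serum starved, and no untreated or serum-fed arm was analysed here. At each time there were 2 two-colour arrays, with DMSO RNA in Cy3 and azacytidine RNA in Cy5 on every array and no dye swap. A dye effect on a single feature therefore cannot be told apart from the treatment. Nothing in the labels says that replicate arrays came from separate dishes, so the p-values below speak only of array-to-array spread, part or all of which may be technical. Every ratio below is azacytidine over DMSO on the log2 scale, and errors are SD with n = 2 arrays. Their direction rests on the dyes in the labels and their log base on the scanner software's convention, as the table states neither. In RNA from whole dishes, a change in the number of cells with CD44 RNA and a change in CD44 RNA per cell cannot be told apart.

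CD44 is a single-pass cell surface glycoprotein and the main receptor for hyaluronan, a long sugar polymer of the extracellular matrix. Its outer part also binds osteopontin and other matrix proteins, its short tail is linked to actin by ezrin, radixin and moesin, and metalloproteinases can shed the outer part. One block of exons is spliced in or out, which gives a standard form and many variant forms. In prostate epithelium CD44 is known as a marker of basal cells, and methylation of its promoter has been described in prostate cancer. 5-azacytidine is built into nucleic acids and traps DNA methyltransferases, so that methylation is lost as cells divide.

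The promoter of CD44 is shown because the treatment acts on methylated CG pairs. Beside it stand the promoters of ELF5 and FJX1, genes of the same stretch of chromosome 11 that are described below. The sequences are those of RefSeq on build GRCh38.p14, from 250 bases before to 50 bases after each gene's start, 5′ to 3′ on the gene's own strand, with every CG in capitals. They lie at chr11:35138921-35139220 on the plus strand (CD44), at chr11:34511675-34511974 on the minus strand (ELF5) and at chr11:35618210-35618509 on the plus strand (FJX1).
CD44: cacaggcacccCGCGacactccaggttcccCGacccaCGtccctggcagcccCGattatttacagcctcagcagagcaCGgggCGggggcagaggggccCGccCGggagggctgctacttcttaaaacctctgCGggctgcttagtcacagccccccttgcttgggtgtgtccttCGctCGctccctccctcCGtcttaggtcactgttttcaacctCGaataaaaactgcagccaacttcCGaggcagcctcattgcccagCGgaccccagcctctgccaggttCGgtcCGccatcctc
ELF5: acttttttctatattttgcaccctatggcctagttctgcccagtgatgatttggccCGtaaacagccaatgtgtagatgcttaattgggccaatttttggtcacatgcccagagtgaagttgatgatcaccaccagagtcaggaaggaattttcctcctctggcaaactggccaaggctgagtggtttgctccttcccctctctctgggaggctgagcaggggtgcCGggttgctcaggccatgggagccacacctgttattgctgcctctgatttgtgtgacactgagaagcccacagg
FJX1: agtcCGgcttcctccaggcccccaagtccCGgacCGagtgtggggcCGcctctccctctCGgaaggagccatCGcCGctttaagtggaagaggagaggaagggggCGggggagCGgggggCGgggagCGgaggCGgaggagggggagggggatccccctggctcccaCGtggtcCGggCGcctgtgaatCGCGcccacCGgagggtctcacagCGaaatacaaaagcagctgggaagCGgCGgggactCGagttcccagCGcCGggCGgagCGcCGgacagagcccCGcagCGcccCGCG

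The CD44 window held 18 CG pairs and 63.3% G and C. A CG reads the same on both strands, so 1 count covers both. Of 35116 RefSeq promoters of that length 44.5% held at least 18, and the median was 14. FJX1 held 31, a number reached by 20.6% of promoters, and ELF5 held 2, a number reached by 89.0%. Whether any of these pairs was methylated was not measured in this study.

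The features of NM_000610 stood far above 0 on every array, whereas those of the other accessions stood near 0. On 24 h replicate 1 the 10 features of NM_000610 ranged from 4.76 to 6.47 with a median of 6.04. On 24 h replicate 2 they ranged from 5.55 to 6.67 with a median of 6.29. On 48 h replicate 1 the range was 4.91 to 6.74 and the median 6.31, and on 48 h replicate 2 the range was 6.03 to 6.75 and the median 6.58. No value of this accession on any array lay near those of the other accessions, and the ranges of the 4 arrays overlapped one another.

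Averaged over its 10 features, NM_000610 was at 5.93 and 6.28 on replicates 1 and 2 of 24 h, and at 6.11 and 6.48 on those of 48 h. The mean was 6.11 ± 0.24 at 24 h, or 68.9-fold, and 6.30 ± 0.26 at 48 h, or 78.6-fold. At each time replicate 2 was the higher array. Among all 43376 features the 10 ranked between 7 and 85 on 24 h replicate 1, between 5 and 53 on 24 h replicate 2, between 14 and 168 on 48 h replicate 1 and between 27 and 75 on 48 h replicate 2.

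The highest of the 10 by mean was feature 30914, at 6.47 and 6.63 at 24 h and 6.74 and 6.70 at 48 h. The lowest at 24 h was feature 39065, at 5.48 and 5.55, and its 48 h values were 6.01 and 6.03. Its replicate arrays lay closer together than those of any other feature of the 10 at 48 h, and closer than all but feature 18697 at 24 h.

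A few features left the others on 1 array alone. Feature 11702 was at 4.76 on 24 h replicate 1 but at 6.67, 6.71 and 6.61 on the other arrays. Feature 8961 was at 4.91 on 48 h replicate 1 and at 5.89, 6.25 and 6.26 elsewhere. Feature 14385 was at 5.19 on 48 h replicate 1 and at 6.26, 6.54 and 6.60 elsewhere. These low readings fell on replicate 1 of either time, and in each case the remaining features of NM_000610 on that array were at 5.48 or above. Spot intensities were not analysed here, so the part of spot quality in them was not tested.

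The U94903 feature, number 21527, was listed at 0 on 24 h replicate 1, at 0.64 on 24 h replicate 2, at -0.75 on 48 h replicate 1 and at 0.38 on 48 h replicate 2. Its sign differed between arrays of one time at 48 h. The U94902 feature, number 31881, was at -0.16 on 24 h replicate 1 and at -0.28 on 48 h replicate 1, and it was listed at 0 on both arrays numbered 2. Of these 8 values 3 were thus listed at exactly 0. The scanner software writes 0 for several reasons, among them a signal that stands above background in neither channel, and between 6011 and 6695 of all features were at 0 on an array. A 0 on these features is therefore not a measured absence of change.

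**Figure D1:**
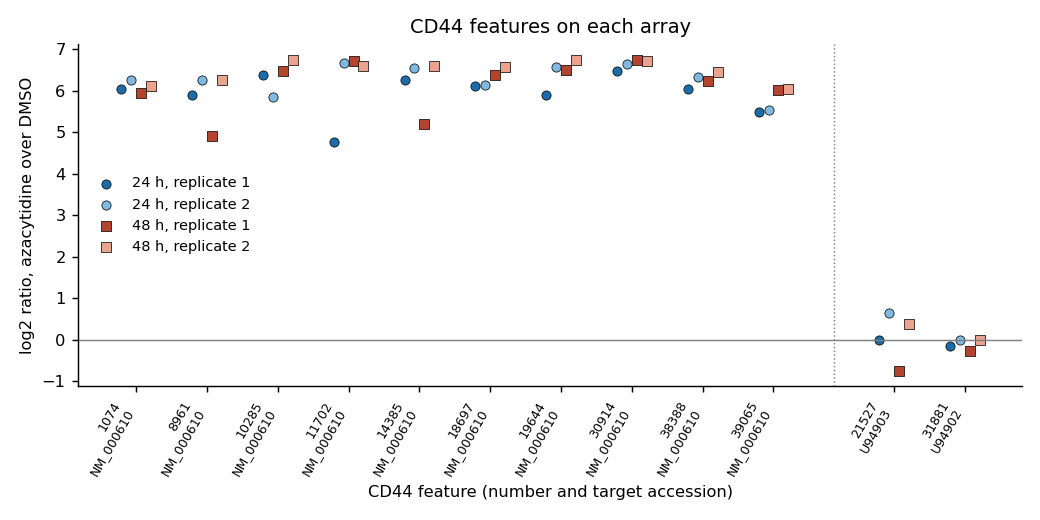
Log2 ratio of azacytidine over DMSO for each of the 12 CD44 features (x axis, number and accession) on each of the 4 arrays (points). The 10 features of NM_000610 lie between 4.76 and 6.75, and the features of U94903 and U94902 lie between -0.75 and 0.64.

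The gap between the mean of NM_000610 and the mean of the other features was 6.01 and 5.96 at 24 h and 6.63 and 6.29 at 48 h, each on replicates 1 and 2. At least 2-fold higher in the mean of the time were 10 of 12 CD44 features at 24 h, where 10.8% of all features were, and 10 of 12 at 48 h, where 13.3% of all features were. These counts describe the ratios the gene was chosen on and support nothing further. The value given to the gene depends on how its features are combined. Their mean was 5.11 ± 0.25 at 24 h and 5.22 ± 0.30 at 48 h, and their median was 6.11 ± 0.20 and 6.32 ± 0.27. With each accession averaged first and the 3 accessions then weighted equally, CD44 was at 2.12 ± 0.27 and 1.99 ± 0.42, or 4.34-fold and 3.97-fold. A ratio within an array shows only that these features read differently, and the levels of the transcripts cannot be compared from it. Where a feature was listed at 0, its side of the gap may not have been measured.

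Other genes on the array were also read by many features of one accession, which puts the spread among the CD44 features beside others. There were 235 accessions with at least 10 features. The mean of NM_000610 of CD44 was the highest of them on 24 h replicate 1, on 24 h replicate 2 and on 48 h replicate 1. On 48 h replicate 2 it was second to the accession of GSTP1. The SD between the 10 CD44 features was 0.50 and 0.36 at 24 h and 0.62 and 0.26 at 48 h, for replicates 1 and 2. The median SD over the 235 accessions was 0.11, 0.12, 0.11 and 0.19 in the same order of arrays. An SD at least as large as that of CD44 was found for 30, 42, 16 and 100 of the 235, CD44 included.

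Of these accessions 4 had a mean of at least 4 at both times. They were those of CD44, of the glutathione transferase gene GSTP1, of the collagenase gene MMP1 and of the bacterial lipoprotein receptor gene TLR2. The SD between features was 0.07 to 0.10 for GSTP1, 0.32 to 0.52 for MMP1 and 0.42 to 0.68 for TLR2. The SD of CD44 lay above that of GSTP1 on every array, and on 48 h replicate 1 it lay above all 3 of these genes. On replicate 2 of both times it lay below those of MMP1 and TLR2, and on 24 h replicate 1 it lay between them.

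**Figure D2:**
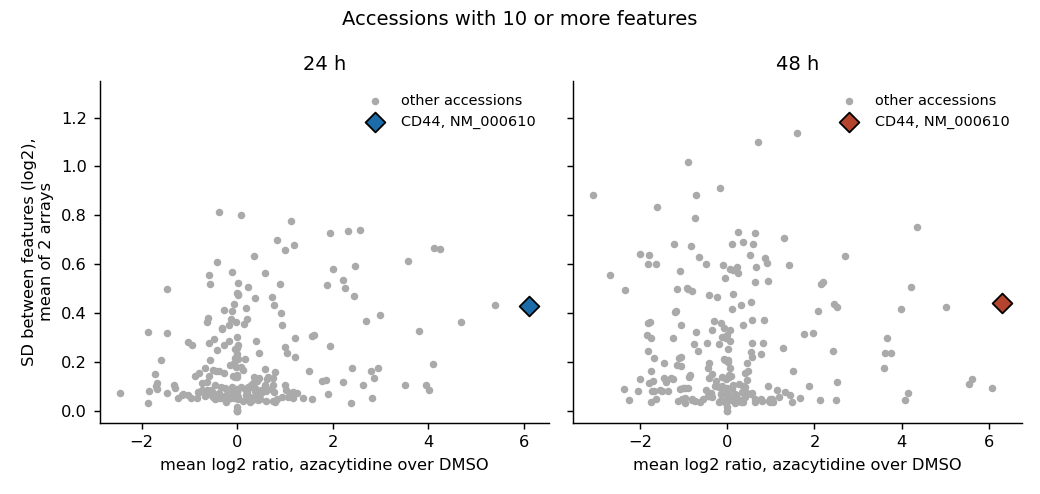
SD between the features of one accession (y axis, log2, mean of the 2 arrays of a time) against the mean log2 ratio (x axis) for 235 accessions with at least 10 features. CD44 NM_000610 (diamond) stands at a mean of 6.11 at 24 h and 6.30 at 48 h.

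A further 61 genes, CD44 among them, had such an accession together with at least 1 feature of another accession. The absolute gap between the means of both had a median of 0.55 at 24 h and 0.74 at 48 h, and it was over 2 for 4 genes at 24 h and for 8 at 48 h. The CD44 gap was the widest of the 61 at either time, at 5.99 and 6.46. Next at 24 h came the haemoglobin gene HBB at 4.20. Since CD44 was chosen for this disagreement, its place in that order is a description.

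CD44 was not chosen on the contrast of 48 h with 24 h, which was tested. The choice used ratios from these same arrays, so the test is not fully independent of it. In limma fitted over all 43376 features, 1 of 12 CD44 features passed the Benjamini-Hochberg threshold of 0.05, where 18.8% of all features did. Most of the 12 share one accession and may not be independent, so a count of 1 cannot set their share apart from that background. The count was 0 with centring the arrays on features not listed at 0 and 2 after scaling all arrays to an equal spread. Feature 39065 was higher at 48 h by 0.51 ± 0.04 (SE), with an adjusted p = 0.0317 in limma and both 48 h arrays above both 24 h arrays. Centring the arrays on features not listed at 0 kept the direction (0.52) and lost the call, and the direction turned after scaling all arrays to an equal spread (-1.25) and under quantile normalization (-0.10). The features called after that scaling were others, 8961 at -2.39 and 14385 at -2.52, both lower at 48 h. The call of 39065 was also lost without 24 h replicate 1, without 24 h replicate 2 and without 48 h replicate 2.

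Feature 18697 differed by 0.33 (limma adjusted p = 0.104), and the other features of NM_000610 differed by between -0.50 and 0.94 with adjusted p of 0.232 to 0.615 in limma. The mean was higher at 48 h for 7 of the 10 and lower for 3. Both 48 h arrays lay above both 24 h arrays for 4 of them, feature 39065 included, whereas 34.6% of all features showed that order. Over the mean of the 10 features the difference was 0.19 ± 0.22 (SE, limma adjusted p = 0.574, n = 2 arrays at each time), smaller than its error. The U94903 feature differed by -0.51 (limma adjusted p = 0.57) and the U94902 feature by -0.06 (limma adjusted p = 0.83).

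The genes nearest to CD44 in ratio were found by the root mean square difference over the 4 arrays, with the median of features for each of 18334 genes. They were TRIM49, a gene of the tripartite motif family, with a difference of 0.45, MAEL, a germ cell gene that acts against transposons, with 0.56, TRIM43 with 0.59, TSPYL5 with 0.60 and ZSCAN4, a zinc finger gene of the early embryo, with 0.66. TRIM49 was at 5.52 and 6.12 at 24 h and at 5.90 and 5.77 at 48 h. MAEL was at 5.68 and 5.84, then at 7.08 and 6.79, and so separated the times, which CD44 did not. TRIM49 and TRIM43 have close copies in the genome, so their features may read more than 1 gene. Only 18 genes lay within 1 of CD44, and the median over all other genes was 6.24. With the mean of features in place of the median, CD44 was at a lower value and 0 of these 5 genes were among the nearest 5. The nearest were then CAMP (0.26), UBD (0.31), FMR1NB (0.37), PRAMEF1 (0.38) and SYCP3 (0.38). The likeness is over 4 ratios that share a slide and a vehicle arm at each time.

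**Figure D3:**
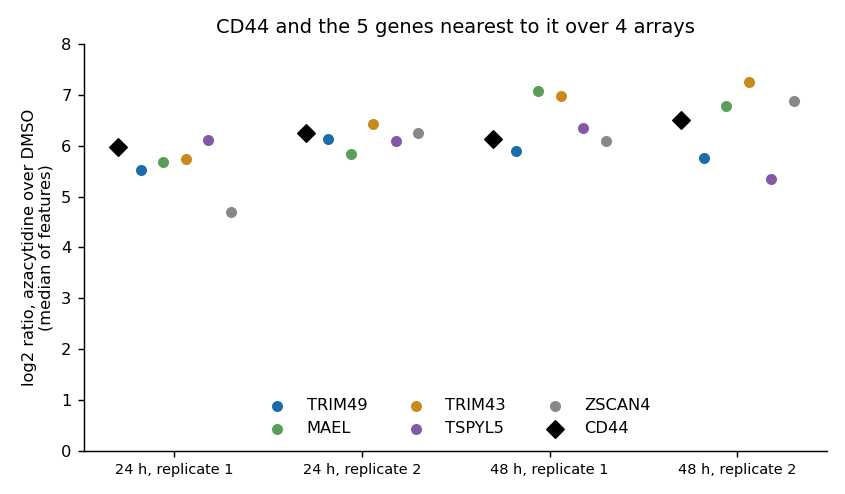
Median log2 ratio of the features of CD44 (black diamonds) and of the 5 genes nearest to it (points) on each array. CD44 stays between 5.97 and 6.51, while ZSCAN4 ranges from 4.70 to 6.88.

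On chromosome 11 the protein-coding genes CAT, ELF5, EHF, APIP and PDHX precede CD44 in RefSeq order, and SLC1A2, PAMR1, FJX1, TRIM44 and LDLRAD3 follow it. Of these 10 neighbours 5 rose at 24 h, where 14.3% of all 18334 genes did, and 0 fell, where 9.97% of all genes did. These calls are from limma over genes with adjustment over all genes, and 0 also fell at an unadjusted p under 0.05. At 48 h 4 rose, against 18.2% of all genes, and 1 fell, against 20.7%. The median ratio of the 10 was 0.65 at 24 h and -0.21 at 48 h, beside 0 over all genes at both times. Immediately upstream, PDHX, which encodes a component of pyruvate dehydrogenase, was at 0.45 and 0.49 at 24 h and at -0.004 and -0.82 at 48 h, and it passed the test at neither time. Immediately downstream, the glutamate transporter gene SLC1A2 rose by 2.38 ± 0.10 at 24 h (limma adjusted p = 0.0179) and by 1.90 ± 0.35 at 48 h (limma adjusted p = 0.0145).

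SLC1A2 features disagreed as those of CD44 did. Feature 37837, of accession NM_004171, was at 4.96 and 4.78 at 24 h and at 4.66 and 4.96 at 48 h. Feature 7933, of the same accession, was at 1.97, 2.55, 1.76 and 0, and feature 25768, of accession BF946023, was listed at 0 on all 4 arrays. For SLC1A2, unlike CD44, features of one accession thus also lay far apart.

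Farther along, the epithelial transcription factor gene ELF5 rose by 2.99 ± 0.12 at 24 h and by 2.18 ± 0.19 at 48 h. Its features moved in opposite directions between replicates, so these SDs are smaller than those of single features. At 24 h feature 7867 was at 3.28 and 4.09 and feature 30705 at 2.86 and 1.72. At 48 h they were at 2.54 and 1.62 and at 2.08 and 2.46. FJX1 rose by 1.74 ± 0.10 and 2.41 ± 0.06, with adjusted p = 0.0133 and 0.00714 in limma. These genes hold 2 and 31 CG pairs in the promoters shown above. Among the other neighbours LDLRAD3 held 38, APIP 28, CAT 20, TRIM44 17 and PAMR1 2. PDHX held 33 or 24 and EHF 8 or 3, by the window taken, and SLC1A2 had no promoter entry. PAMR1 rose by 1.48 ± 0.05 at 24 h and was listed at 0 on both 48 h arrays. TRIM44 turned, at 0.62 ± 0.14 at 24 h and -0.74 ± 0.05 at 48 h, past the threshold at both. EHF, an epithelial transcription factor gene, was at 0.19 ± 0.25 at 24 h, which did not pass, and rose by 0.75 ± 0.12 at 48 h. APIP was at 0.68 ± 0.09 and -0.46 ± 0.46, the catalase gene CAT at -0.15 ± 0.09 and -0.85 ± 0.58, and LDLRAD3 at 0.20 ± 0.39 and -1.12 ± 1.39, and these 3 genes passed the test at neither time. After scaling all arrays to an equal spread and under quantile normalization, EHF lost its call at 48 h (limma adjusted p = 0.0845 and 0.0755) and APIP passed at 24 h (limma adjusted p = 0.0355 and 0.0364).

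**Figure D4:**
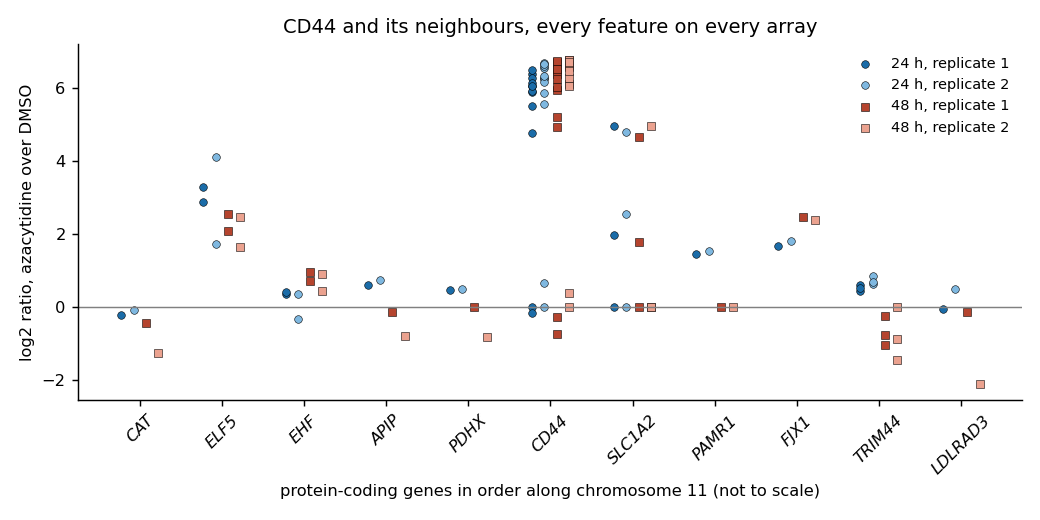
Log2 ratio of every feature on every array (points) for CD44 and 10 protein-coding neighbours in their order along chromosome 11, not to scale. The 10 high CD44 features lie between 4.76 and 6.75, and 1 SLC1A2 feature lies between 4.66 and 4.96.

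Genes were taken from 9 lists, of which 88 of 93 members were measured. The lists hold genes described as acting with CD44, markers used with it and its neighbours, which were taken by position alone. They were chosen with earlier results of these data known, so their shares beside those of all genes are a description. At 24 h 26 of the 88, or 29.5%, were higher and 3, or 3.41%, were lower, where 14.3% and 9.97% of all genes were. The median ratio was 0.16, beside 0 over all genes. At 48 h 27 were higher, or 30.7%, and 11 lower, or 12.5%, where 18.2% and 20.7% of all genes were, with a median of 0.03 beside 0 over all genes. Between times 12 were higher at 48 h, or 13.6%, and 7 lower, or 7.95%, where 9.83% and 13.1% of all genes were. The split at 24 h moved with the scaling, to 27 higher and 15 lower after scaling all arrays to an equal spread and to 28 and 15 under quantile normalization. Between times it moved to 11 and 17 with the scaling, to 13 and 18 under quantile normalization and to 13 and 15 with centring on features not at 0. Without 24 h replicate 1 limma called 0 of the 88 at 24 h (24 at an unadjusted p under 0.05) and 0 at 48 h (35), and without 24 h replicate 2 the counts were again 0 (24) and 0 (35). Between times these omissions gave 0 (20) and 0 (17), and leaving out 48 h replicate 1 gave 40. The 48 h arrays alone also gave 0 (35), and a term for the replicate number gave 0 at 24 h (38) and 0 at 48 h (42). The shares of all genes called under these alternatives are not given here. Whether the lists moved apart from all genes under them was thus not tested.

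Among the enzymes that make and break hyaluronan, 3 of 7 measured members rose and 1 fell at 24 h (median 0.10), and 3 rose and 1 fell at 48 h (median 0.18). Beside these counts, 14.3% of all genes rose and 9.97% fell at 24 h, and 18.2% rose and 20.7% fell at 48 h. The synthase gene HAS2 was listed at 0 on all arrays. CEMIP, which encodes a protein needed for hyaluronan breakdown, was at 3.22 and 2.67 at 24 h and at 1.79 and 1.54 at 48 h, and it rose at both times (limma adjusted p = 0.0171 and 0.0208). Of its 3 features 1 was listed at 0 throughout, and the highest was at 5.15 ± 1.14 at 24 h. CEMIP2, a cell surface hyaluronidase gene, rose by 0.87 ± 0.03 and by 1.37 ± 0.01. The hyaluronidase gene HYAL2 fell by 0.36 on the log2 scale at 24 h, to -0.36 ± 0.04, and was at -0.13 ± 0.04 at 48 h, and HYAL3 was at 0.006 ± 0.067 at 24 h and rose by 1.08 ± 0.14 at 48 h. The call of HYAL2 was lost with centring on features not at 0 (limma adjusted p = 0.0707) and that of CEMIP at 48 h with scaling to an equal spread (limma adjusted p = 0.0671).

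Of 8 other hyaluronan-binding proteins 0 rose and 1 fell at 24 h in limma (2 and 1 at an unadjusted p under 0.05), and 1 rose and 1 fell at 48 h, with a median of 0 at both times. Among all genes 14.3% rose and 9.97% fell at 24 h, and 18.2% rose and 20.7% fell at 48 h. The member of the list that fell was HMMR, which encodes a hyaluronan-binding protein of the mitotic spindle. It was at -1.65 ± 0.20 at 24 h and -1.79 ± 0.02 at 48 h (limma adjusted p = 0.0157 and 0.00931). The scavenger receptor gene STAB2 was at 1.46 ± 0.11 at 24 h (limma adjusted p = 0.0545) and rose by 1.59 ± 0.60 at 48 h (limma adjusted p = 0.0366), and STAB1 was at 0.33 ± 0.15 and -0.25 ± 0.15 and passed at neither time. STAB2 passed at 24 h with centring on features not at 0 (limma adjusted p = 0.0233), and at 48 h it lost its call with scaling to an equal spread (0.0848) and under quantile normalization (0.0631). Members listed at 0 on all arrays numbered 3 of the 8.

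Of 11 other ligands and partners 6 rose and 0 fell at 24 h in limma (2 lower at an unadjusted p under 0.05, median 0.83), and 4 rose and 1 fell at 48 h (median 0.12). Over all genes 14.3% rose and 9.97% fell at 24 h, and 18.2% rose and 20.7% fell at 48 h. The osteopontin gene SPP1, read by 10 features, was at 3.95 and 4.27 at 24 h and at 3.71 and 3.79 at 48 h, and rose at both times (limma adjusted p = 0.0126 and 0.00715). Its features lay between 2.38 and 4.51 in the mean of 24 h. The receptor tyrosine kinase gene MET rose by 1.94 ± 0.11 and 1.60 ± 0.35, although its 12 features ranged from -0.27 to 2.33 at 24 h. EGFR, another such kinase, rose by 0.60 ± 0.03 and 1.44 ± 0.01. SLC7A11, which encodes a cystine transporter that variant CD44 is known to stabilise, rose by 0.83 ± 0.25 at 24 h and was lower at -2.61 ± 0.18 at 48 h. Scaling to an equal spread ended the calls of EGFR and SLC7A11 at 24 h (limma adjusted p = 0.0572 and 0.0719) and of MET at 48 h (limma adjusted p = 0.0532).

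Of 11 genes of cytoskeletal linkage and signalling 3 rose and 1 fell at 24 h (median 0.05), and 3 rose and 2 fell at 48 h (median -0.05). Among all genes 14.3% rose and 9.97% fell at 24 h, and 18.2% rose and 20.7% fell at 48 h. The ankyrin gene ANK3 was at -0.39 ± 0.02 and 0.26 ± 0.09, past the threshold at both times in opposite directions. Of the Src family kinase genes, SRC rose by 0.30 ± 0.05 and 0.57 ± 0.03, LCK rose by 2.33 ± 0.20 at 24 h and was at 0.94 ± 0.62 at 48 h, and LYN was at -0.36 ± 0.02 at 24 h and lower at -0.96 ± 0.23 at 48 h. The kinase gene ROCK1 was at 0.05 ± 0.05 at 24 h and lower at -1.43 ± 0.45 at 48 h. With centring on features not at 0 ANK3 lost its call at both times (limma adjusted p = 0.0649 and 0.0764), and LCK passed at 48 h (limma adjusted p = 0.0431). SRC at 24 h lost its call under that centring, scaling to an equal spread and quantile normalization (limma adjusted p = 0.0619, 0.0585 and 0.0637), and LYN at 24 h passed under the last 2 (limma adjusted p = 0.0176 and 0.0122).

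Of 7 measured genes of shedding and cleavage 4 rose at each time and 0 fell in limma (1 lower at 24 h and 0 at 48 h at an unadjusted p under 0.05). Over all genes 14.3% rose and 9.97% fell at 24 h, and 18.2% rose and 20.7% fell at 48 h. The median of the list was 1.03 at 24 h and 1.33 at 48 h. The matrilysin gene MMP7 was at 5.54 and 6.15 at 24 h and at 5.30 and 4.80 at 48 h, from 1 feature, and rose at both times (limma adjusted p = 0.0141 and 0.00906). The gelatinase gene MMP9 rose by 1.03 ± 0.05 and 2.51 ± 0.34. TIMP1, an inhibitor of metalloproteinases, rose by 3.77 ± 0.03 and 5.87 ± 0.16, or 13.6-fold and 58.5-fold.

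Of 13 splicing regulators described for the variable exons 0 rose and 0 fell at 24 h in limma, with 0 higher and 6 lower at an unadjusted p under 0.05. At 48 h 2 rose and 4 fell. Beside these counts, 14.3% of all genes rose and 9.97% fell at 24 h, and 18.2% rose and 20.7% fell at 48 h. The median of the list was -0.35 at 24 h and -0.44 at 48 h. The epithelial splicing factor gene ESRP1 was at -0.49 ± 0.10 and -0.44 ± 0.21 and passed at neither time, and ESRP2 was at -0.11 ± 0.01 at 24 h and rose by 1.45 ± 0.39 at 48 h. RBFOX2 was at -0.12 ± 0.08 at 24 h and lower at -1.71 ± 0.12 at 48 h. HNRNPA1 was at -1.18 ± 0.004 (limma adjusted p = 0.0699) and lower at -2.28 ± 0.58 at 48 h, and SRRM1 was at -0.41 ± 0.18 and lower at -0.54 ± 0.002. HNRNPA1 has many processed copies in the genome, so its features may read more than 1 locus. SRSF1 was at -0.35 ± 0.10 and -0.16 ± 0.09, and TRA2B at -0.58 ± 0.05 and 0.36 ± 0.25, and neither passed at either time in that fit. Both genes had features of either sign at both times. The count of 0 at 24 h depended on the scaling, since SRSF1, TRA2B and HNRNPA1 were lower past the threshold after scaling to an equal spread (limma adjusted p = 0.0375, 0.0193 and 0.0174). Under quantile normalization the same 3 and SRRM1 were (limma adjusted p = 0.0304, 0.0245, 0.0116 and 0.0444), and with centring on features not at 0 HNRNPA1 was (0.0346). At 48 h SRRM1 lost its call with the scaling and under quantile normalization (limma adjusted p = 0.0582 and 0.0567). Which CD44 exons were spliced in was not analysed here.

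Of 11 measured transcriptional regulators 4 rose and 0 fell at 24 h (median 0.40), and 5 rose and 0 fell at 48 h (median 0.78), in limma, with 1 lower at each time at an unadjusted p under 0.05. The shares over all genes were 14.3% higher and 9.97% lower at 24 h, and 18.2% higher and 20.7% lower at 48 h. The immediate early gene EGR1 was at 2.49 and 2.55 at 24 h and at 2.79 and 2.59 at 48 h, and rose at both times (limma adjusted p = 0.0127 and 0.00714). KLF4 rose by 2.84 ± 0.04 and 1.69 ± 0.22, the NF-κB subunit gene NFKB1 by 1.57 ± 0.11 and 1.04 ± 0.15, and SP1 by 0.51 ± 0.07 and 0.78 ± 0.06.

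Of 10 measured surface and basal markers that are used with CD44, 1 rose and 0 fell at 24 h in limma (1 lower at an unadjusted p under 0.05, median 0.30), and 1 rose and 1 fell at 48 h (median -0.08). The shares over all genes were 14.3% higher and 9.97% lower at 24 h, and 18.2% higher and 20.7% lower at 48 h. NGFR, the neurotrophin receptor gene of basal cells, rose by 1.73 ± 0.15 and 1.34 ± 0.40. The laminin receptor subunit gene ITGA6 was at 0.23 ± 0.06 at 24 h and lower at -1.87 ± 0.58 at 48 h. The keratin gene KRT14 was at 0.45 ± 0.72 and 1.60 ± 0.28, CD24 at 1.36 ± 0.09 and -0.50 ± 0.66, and ITGA2 at -0.59 ± 0.22 and -0.41 ± 0.29, none of them past the threshold at either time in that fit. CD24 at 24 h passed with centring on features not at 0, scaling to an equal spread and quantile normalization (limma adjusted p = 0.0303, 0.0255 and 0.0255). KRT14 at 48 h passed with that centring (limma adjusted p = 0.0226), and ITGA6 at 24 h passed with that scaling at 0.27 (limma adjusted p = 0.0393). NGFR at 48 h lost its call with that scaling and under quantile normalization (limma adjusted p = 0.0674 and 0.0526).

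**Figure D5:**
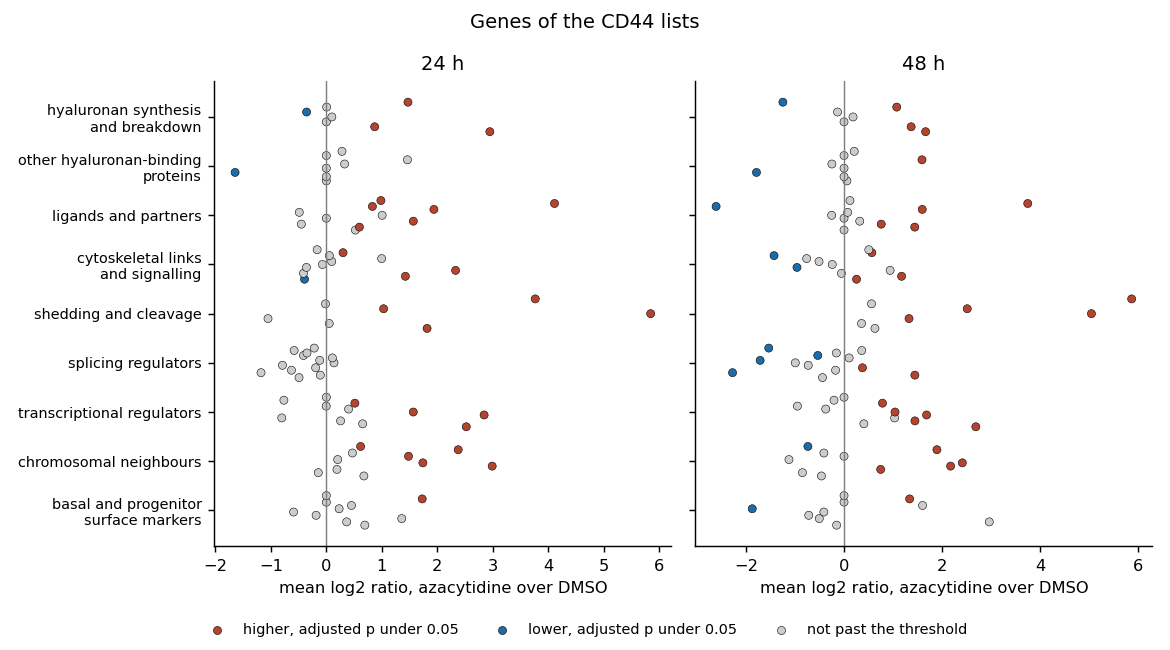
Mean log2 ratio of azacytidine over DMSO at each time (x axis) for the 88 measured genes of 9 CD44 lists (rows), coloured by the limma call. Of the 88 genes 26 were higher and 3 lower at 24 h, and 27 were higher and 11 lower at 48 h.

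Ratios carry no level, so the labelled cell line could not be checked against the abundance of its markers. Of 7 measured luminal prostate markers 2 rose and 2 fell at 24 h, and 3 rose and 3 fell at 48 h. For these counts and those of the other marker lists, the shares over all genes were 14.3% higher and 9.97% lower at 24 h and 18.2% higher and 20.7% lower at 48 h. Among 5 leukocyte markers 1 rose at 24 h and 2 at 48 h, and 0 fell (0 also at an unadjusted p under 0.05 in limma), and the genes that rose were CD68, at 2.83 ± 0.21 and 2.45 ± 0.49, and at 48 h also CD14, at 0.91 ± 0.19. The defining marker PTPRC was at -0.02 ± 0.02 and at 0 on both 48 h arrays, but 10 of its 11 features were listed at 0 on all arrays, which is not a measured absence of change. Among 7 stromal and endothelial markers 2 rose and 0 fell at 24 h, and 0 rose and 2 fell at 48 h in limma (2 lower at 24 h and 1 higher at 48 h at an unadjusted p under 0.05). The part of other cell types in the CD44 ratios was not tested. Arrays correlated with r = 0.897 at 24 h and r = 0.858 at 48 h across features, which are not independent replicates.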

How the data were processed

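Total RNA from LNCaP cells was hybridised to 4 two-colour Agilent arrays, and the number of arrays limits every precision given. The authors deposited 1 table of log ratios, read here as log10 although it states no base, with Agilent Feature Extraction 8.5.1.1 named per the submitters' processing notes. The settings are not given in the sources used here, and the median of each array was 0. Of 45220 rows 43376 had values. Taken as log10 of the Cy5 over the Cy3 signal, these were multiplied by 3.32 to give log2 ratios. Features were named from the platform annotation, 31332 of them with 1 symbol, and gene values were means of a gene's features.

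A linear model was fitted (limma 3.58.1, R 4.3.3) with 1 mean per time over 4 arrays with 2 residual degrees of freedom, on features for CD44 and on 18334 genes for the lists. Tests were two-sided, with Benjamini-Hochberg adjustment over the whole table and a threshold of 0.05. The fit was tested on simulated data. Genes of each list were named by the 3 lowest p-values at each time among those with both arrays of one sign, with HAS2, HMMR, ESRP1, MMP7 and all neighbours beside them, and the 5 genes nearest to CD44 in ratio were named. CD44, the lists and the rules were chosen with earlier results of these data known. Alternatives are given in the closing section. Neighbour order and promoters came from RefSeq tables of GRCh38.p14, in which 10 of 11 genes had a promoter. Figures were drawn with matplotlib 3.10.9.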

Additional observations from a re-analysis of the deposited data

Results flagged for a closer look

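Among the CD44 features and the genes named by rule, the following ratios differed between 48 h and 24 h by limma's test of the difference itself, at an adjusted p under 0.05. Of the 88 list genes 19 were called between times. Of these 12 were higher at 48 h (13.6%) and 7 lower (7.95%), where 9.83% and 13.1% of all genes were. By that rule 13 of the 19 are named and 6 are not. These 6, singled out after their values were seen, were UGDH (-2.72), MMP14 (2.38), FN1 (-1.25), ERBB2 (1.21), FOSL1 (1.19) and HNRNPM (0.57). The features of HNRNPM had either sign at 48 h (-0.76 to 1.51). Values are 48 h minus 24 h on the log2 scale. For CD44 this was feature 39065, at 0.51. Among enzymes of hyaluronan breakdown CEMIP2 differed by 0.50 and HYAL3 by 1.07. The receptor gene EGFR differed by 0.85 and the cystine transporter gene SLC7A11 by -3.44. ANK3 differed by 0.65. The protease inhibitor gene TIMP1 differed by 2.11 and MMP9 by 1.48. Of the splicing regulators RBFOX2 differed by -1.59 and ESRP2 by 1.55, and of the transcriptional regulators KLF4 by -1.16. Of the neighbours of CD44, PAMR1 differed by -1.48, FJX1 by 0.67 and TRIM44 by -1.36. The 48 h value of PAMR1 was listed at 0 on both arrays, so its difference is from a value that may not be a measurement.

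Several of these calls ended after scaling all arrays to an equal spread. TIMP1 then differed by 0.65 (limma adjusted p = 0.584), MMP9 by 0.93 (0.0619), FJX1 by 0.06 (0.967), CEMIP2 by 0.16 (0.598), EGFR by 0.56 (0.168), KLF4 by -1.85 (0.0549) and feature 39065 by -1.25 (0.407). Under quantile normalization the calls of CEMIP2 (0.31, limma adjusted p = 0.177), EGFR (0.65, 0.0656), FJX1 (0.41, 0.107) and feature 39065 (-0.10, 0.857) ended. With centring on features not at 0 that of feature 39065 alone ended (limma adjusted p = 0.0503). The other named genes called between times kept their calls under these 3 alternatives. Calls between times were also gained among the CD44 features and named genes. They numbered 10 with scaling to an equal spread, 8 under quantile normalization and 7 with that centring. APIP, CD24, ITGA6 and ROCK1, lower at 48 h, and TRA2B, higher at 48 h, passed under all 3.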

How the results depend on the processing

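The median of the CD44 features stayed above 0 under every alternative run. Against 6.11 at 24 h and 6.32 at 48 h it was 7.18 and 5.45 after scaling all arrays to an equal spread and 6.46 and 5.97 under quantile normalization, so the order of the times turned in both, and 1.84 and 1.90 with the values read as log2. The mean of features gave 5.11 and 5.22, and the mean of accession means 2.12 and 1.99, which also turned the order. Of 12 CD44 features 1 was called between times. With that scaling 2 other features were called, 8961 (-2.39) and 14385 (-2.52), both lower at 48 h. The count was 0 with centring on features not at 0, quantile normalization, features at 0 left out, genes or (chosen after seeing the data) accession means as rows, or a replicate block. It was 0 to 1 with each array left out. Feature 39065 reversed to -1.25 with scaling and to -0.10 under quantile normalization.

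With a replicate block limma called 0 of the 88 genes of the CD44 lists at 24 h, at 48 h and between times (38, 42 and 29 at an unadjusted p under 0.05). The labels give same-numbered arrays only a shared number. Deviations of same-numbered arrays correlated with r = -0.047 across features, which cannot settle whether these arrays were paired. For the mean of the CD44 features replicate 1 was the lower array at both times. With each array left out the counts ranged from 0 to 40 at 24 h (29 with all arrays), 0 to 51 at 48 h (38) and 0 to 40 between times (19). The 0 counts came without either 24 h array, and 40 between times came without 48 h replicate 1. The lone array of a time is then assumed to vary like the other time. The 48 h arrays alone gave 0. Between times quantile normalization gave 31 calls (13 higher, 18 lower) and features at 0 left out gave 33 of 74 measured (14 higher, 19 lower), beside 12 higher and 7 lower. The mean of features shared 0 of the 5 nearest genes. For the counts of list genes, the shares of all genes called under the same alternatives are not given here. Whether the lists moved apart from all genes was thus not tested. For the other changes the cause was not tested.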
